A study of Mus musculus with 12 samples.

Results

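The genes described here make, remove, sense and place the second messenger cAMP, or shorten the G protein signals that act upstream of it. They were all genes on the array whose symbol begins with Adcy (adenylyl cyclases), Pde (phosphodiesterases), Prkac or Prkar (subunits of cAMP-dependent protein kinase, PKA), Akap (A-kinase anchoring proteins) or Rgs (regulators of G protein signalling), each followed by the family number or subunit name. The choice used names, not measured values, but was made with earlier results of these data known. It gave 77 of the 19938 genes that the platform annotation names singly. These were 10 cyclases, 25 phosphodiesterases, 5 PKA subunits, 15 anchors and 22 RGS genes. Each gene was read through its probe set with the highest mean over all arrays. The catalytic subunit gene Prkaca and the anchor gene Akap2 are absent from the set because their rows carry a further symbol, so Prkacb is the only catalytic subunit among the members. The RGS genes include Rgs7bp and Rgs9bp, which encode binding partners of RGS proteins, and neither passed a test.

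Cumulus cells are the granulosa cells that surround the oocyte, and their RNA was profiled after culture of the whole complex and removal of the oocyte. The 129SV mice were 21 to 26 days old and had received 5 IU equine chorionic gonadotropin 44 h earlier. Complexes were cultured for 8 h, 20 to a drop of 50 µL. The FSH/EGF group had FSH at 50 mIU/ml, EGF at 10 ng/ml and 293H control medium at 0.125% by volume, the GDF9 group received 20 ng/ml GDF9, and the control group had the 293H control medium alone at 0.125%. FSH and EGF were given only together, so their effects cannot be told apart, and the labels do not say whether GDF9 cultures held the control medium too. All complexes were collected in cilostamide at 1 µM, an inhibitor of the PDE3 phosphodiesterases, and the labels list none in the culture medium. Each group had 4 arrays, and each array held RNA pooled from 2 of 8 biological replicates, so p-values measure the spread between pools.

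FSH acts on granulosa and cumulus cells through a receptor coupled to Gs, which switches on adenylyl cyclase. The cAMP made binds the regulatory subunits of PKA and frees the catalytic subunits, anchoring proteins hold the kinase near its substrates, and phosphodiesterases end the signal by breaking cAMP down. RGS proteins speed the shut-off of G protein alpha subunits, mostly of the Gi and Gq families. In the ovary cAMP is known for driving granulosa cell differentiation and cumulus expansion, and, inside the oocyte, for holding meiosis.

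The arrays were alike in scale, with medians from 5.41 to 5.53 on the log2 scale and correlations within groups from 0.971 to 0.995. Control array 1 stood apart: it had an array weight of 0.269, against 0.485 to 2.04 for the other 11 arrays. It was the lowest of the 4 controls for 14 of the 26 members in the brightest 40% of genes, and the highest for 27 of the other 51. Of 12 measured cumulus and granulosa markers, 1 rose and 9 fell with FSH/EGF, and their mean log2 level was 8.14 to 8.28 on the FSH/EGF arrays, 9.39 to 9.50 on the GDF9 arrays and 9.38 to 9.50 on the control arrays. Of 17 oocyte markers, 1 rose and 2 fell with FSH/EGF, with mean levels of 5.18 to 5.50 on the FSH/EGF arrays, 5.14 to 5.29 on the GDF9 arrays and 5.24 to 6.18 on the control arrays, where control array 4 was highest. Mean levels of the endothelial, the ovarian surface epithelium and the theca and stroma markers also separated the FSH/EGF arrays from the control arrays. The median log2 difference against control was -0.02 over the endothelial list, -0.20 over the surface epithelium list and -0.28 over the theca and stroma list. Of 8 endothelial markers 2 rose and 0 fell, with mean levels of 5.34 to 5.39 with FSH/EGF, 4.88 to 5.09 with GDF9 and 4.93 to 5.09 in control, and Cdh5 at 3.18. Of 8 ovarian surface epithelium markers 2 rose, Krt8 by 3.02 and Krt18 by 2.72, and 2 fell, with mean levels of 6.14 to 6.23 with FSH/EGF, 5.47 to 5.72 with GDF9 and 5.50 to 5.83 in control. Of 9 theca and stroma markers 1 rose and 3 fell, with mean levels of 5.56 to 5.67 with FSH/EGF, 5.79 to 5.98 with GDF9 and 5.86 to 6.04 in control. Of 7 leukocyte markers 1 rose and 0 fell, and their mean levels overlapped, at 4.83 to 4.95 with FSH/EGF and 4.88 to 5.04 in control. Both measured red blood cell markers fell. The part of these shifts in the results was not tested. In bulk RNA, fewer cells of a type and less RNA per cell cannot be told apart.

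With FSH/EGF, 34 of the 77 genes changed against control at an adjusted p under 0.05 by limma, and every class had members that rose and members that fell. The 34 are 44.2% of the members, beside 36.8% of all genes, so a call was common everywhere on these arrays. Of the 34, 20 rose and 14 fell, where 21.9% of all genes rose and 14.9% fell. With all array medians set equal, which moves the middle of all genes from -0.07 to 0.005 on the log2 scale, the split was 22 that rose and 9 that fell. Changes of at least 2-fold were seen in 12 members, 15.6% of them, beside 7.37% of all genes. Of these 7 rose, where 5.14% of all genes did, and 5 fell, where 2.23% did. The median log2 difference over the members was -0.10, beside -0.07 over all genes. The groups did not overlap for 39 of the 77 members, beside 8362 of all 19938 genes (41.9%). With GDF9, 0 of the 77 genes passed the threshold.

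**Figure D1:**
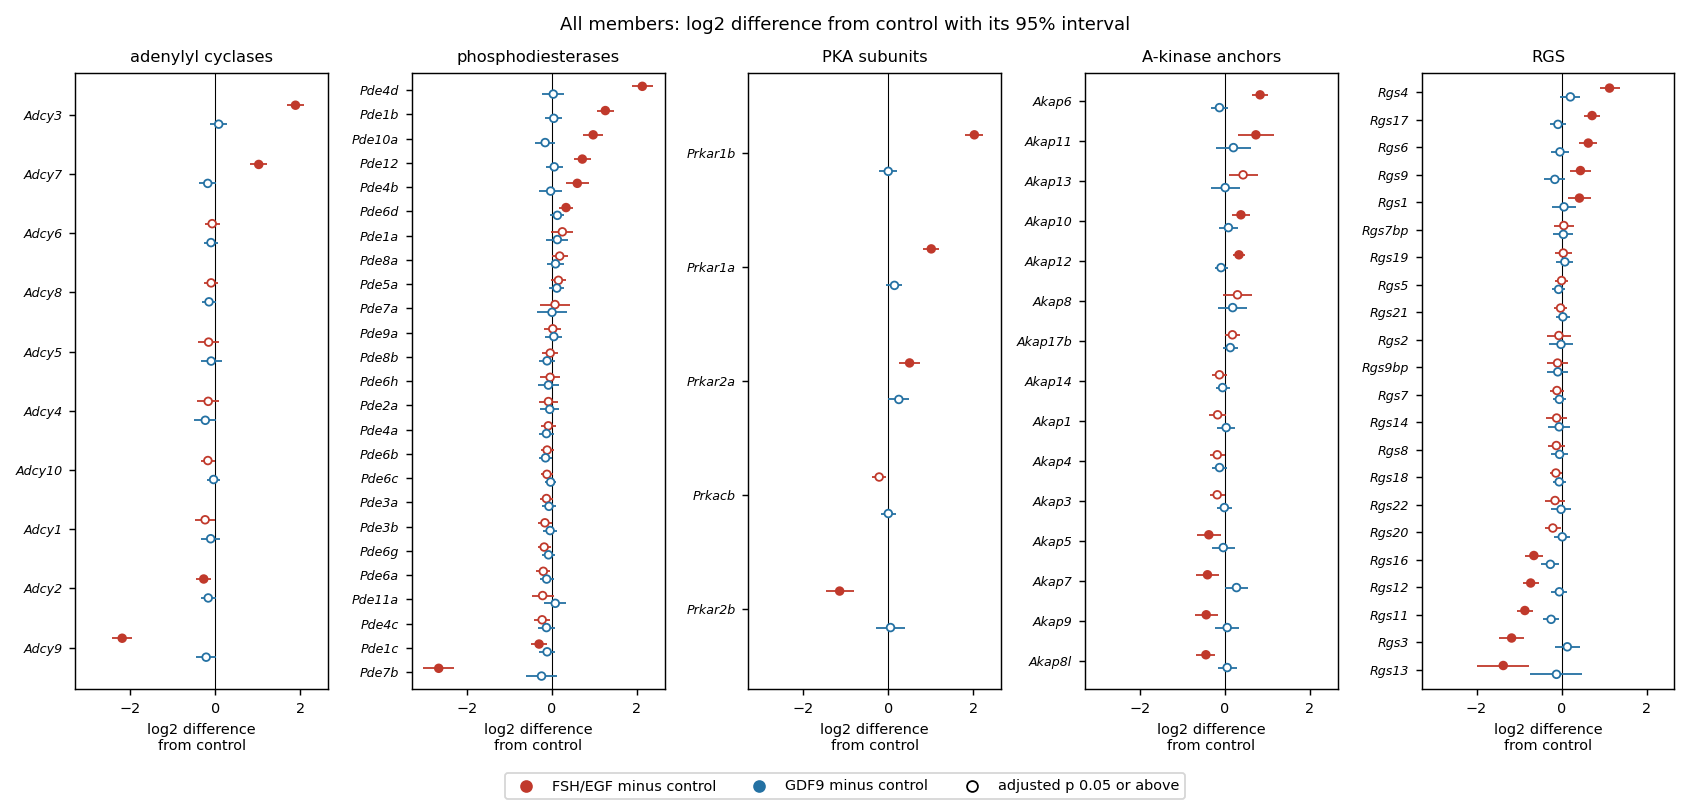
Log2 difference from control (x axis, with 95% intervals) for each of the 77 members in its class, for FSH/EGF and for GDF9, 4 arrays per group, filled where the adjusted p was under 0.05. The FSH/EGF differences run from -2.66 for Pde7b to 2.13 for Pde4d, whereas the GDF9 differences stay between -0.26 and 0.27.

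Adenylyl cyclases make cAMP from ATP. Of the 10 measured, Adcy3 and Adcy7 rose with FSH/EGF, Adcy9 and Adcy2 fell and 6 did not pass the test. The called share was 40%, near the 36.8% of all genes. Adcy3, best known from olfactory neurons and primary cilia, had log2 levels of 9.39, 9.46, 9.54 and 9.69 on the FSH/EGF arrays, 7.78, 7.88, 7.55 and 7.63 on the GDF9 arrays and 7.71, 7.64, 7.52 and 7.64 on the control arrays. Its lowest FSH/EGF array lay well above all 8 others, and it rose 3.70-fold against control (log2 difference 1.89 ± 0.09 SE, adjusted p = 1.11e-08). Adcy7, an isoform that Gbeta-gamma subunits can enhance, had 6.88, 6.76, 6.74 and 6.93 with FSH/EGF, 5.40, 5.86, 5.67 and 5.58 with GDF9 and 5.75, 5.77, 5.85 and 5.85 in control. The FSH/EGF arrays were again the highest, with a rise of 1.02 ± 0.09 (adjusted p = 3.38e-06).

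Adcy9, a widely expressed cyclase, moved the other way. Its levels were 6.61, 6.44, 6.46 and 6.63 with FSH/EGF, 8.54, 8.42, 8.30 and 8.78 with GDF9 and 8.51, 8.70, 8.79 and 8.88 in control. No FSH/EGF array reached the lowest array of either other group, and Adcy9 was 4.56-fold lower than in control (log2 difference -2.19 ± 0.11, adjusted p = 1.54e-08). Adcy2 fell by far less, to 5.08, 5.22, 5.09 and 5.04 with FSH/EGF, with 5.01, 5.30, 5.27 and 5.25 in GDF9 and 5.30, 5.46, 5.45 and 5.28 in control (-0.27 ± 0.08, adjusted p = 0.0256). That call was lost without any 1 of FSH/EGF arrays 1, 3 and 4 or control arrays 2 and 3 (adjusted p from 0.062 to 0.0718), and with equal array medians (-0.19, adjusted p = 0.0707). Quantile normalization lost the Adcy2 call too (-0.18, adjusted p = 0.0845). Adcy1 differed by -0.24 ± 0.11 (adjusted p = 0.11), and Adcy6, named after its values were seen, by -0.07. Without GDF9 array 2, which enters only through the shared spread, Adcy1 passed (-0.24, adjusted p = 0.0479).

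Phosphodiesterases break down cAMP, cGMP or both. Of the 25, 6 rose, 2 fell and 17 did not pass the test with FSH/EGF. The called share was 32%, beside 36.8% of all genes. Among the 8 genes of the cAMP-specific families (PDE4, PDE7 and PDE8), Pde4d and Pde4b rose and Pde7b fell. Among the 8 that act on both nucleotides, Pde1b and Pde10a rose and Pde1c fell. None of the 5 catalytic genes of the cGMP-specific families (PDE5, PDE6 and PDE9) passed the test, though Pde6a passed under some alternatives given below.

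Pde4d, a cAMP-specific enzyme whose long forms PKA can activate, had 7.46, 7.61, 7.58 and 7.90 with FSH/EGF, 5.56, 5.85, 5.43 and 5.34 with GDF9 and 5.55, 5.51, 5.40 and 5.57 in control. The FSH/EGF arrays lay above all others, and Pde4d rose 4.37-fold (2.13 ± 0.12, adjusted p = 3.45e-08). Its other 2 probe sets also rose, by 0.31 ± 0.09 (adjusted p = 0.0200) and 1.53 ± 0.09 (adjusted p = 5.01e-08). These were dimmer, with control means of 3.68 and 3.67, beside 5.51 for the probe set used, and 2.92 as the lowest value on any array. With FSH/EGF their means were 3.99 and 5.21. The size of the change thus differed between probe sets of unlike level, and whether low signal limits it was not tested. Pde4b, of the same family, had 4.84, 5.16, 5.13 and 5.50 with FSH/EGF, 4.35, 4.73, 4.51 and 4.53 with GDF9 and 4.64, 4.58, 4.60 and 4.41 in control. FSH/EGF array 4 was the highest, the groups did not overlap, and the rise was 0.60 ± 0.13 (adjusted p = 0.0034). Pde4a differed by -0.08 (adjusted p = 0.474) and Pde8a by 0.18 ± 0.09 (adjusted p = 0.133). Without control array 2 Pde8a passed (0.25, adjusted p = 0.0451).

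Pde7b, a cAMP-specific enzyme of another family, showed the largest difference of any member against control. It had 6.08, 6.37, 6.32 and 6.62 with FSH/EGF, 8.91, 8.50, 8.61 and 9.04 with GDF9 and 8.56, 9.11, 9.15 and 9.21 in control. Every FSH/EGF array was below every other array, and Pde7b was 6.33-fold lower than in control (-2.66 ± 0.17, adjusted p = 1.19e-07). Control array 1 was the lowest control.

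Pde1b and Pde10a hydrolyse both nucleotides, Pde1b under calcium and calmodulin. Pde1b had 7.30, 7.14, 7.25 and 7.47 with FSH/EGF, 6.14, 6.19, 6.08 and 5.90 with GDF9 and 6.16, 5.94, 6.10 and 5.93 in control, a rise of 1.26 ± 0.09 (adjusted p = 4.76e-07). Pde10a had 6.68, 6.70, 6.55 and 7.02 with FSH/EGF, 5.63, 5.64, 5.60 and 5.56 with GDF9 and 5.97, 5.65, 5.59 and 5.84 in control, a rise of 0.97 ± 0.11 (adjusted p = 1.76e-05). For both genes the FSH/EGF arrays stood clear of the other 8. Pde1c, from the calmodulin-dependent family of Pde1b, fell by 0.30 ± 0.09 (adjusted p = 0.0242), with 4.88, 5.16, 4.94 and 4.94 in FSH/EGF, 5.07, 5.35, 5.24 and 5.02 in GDF9 and 5.25, 5.35, 5.33 and 5.20 in control. The Pde1c call was lost without any 1 of FSH/EGF arrays 1, 3 and 4 or control arrays 2 and 3 (adjusted p from 0.059 to 0.0739). It was also lost with equal array medians (-0.22, adjusted p = 0.0529) and after quantile normalization (-0.21, adjusted p = 0.0652).

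Pde12, which despite its name degrades oligoadenylates and RNA tails rather than cyclic nucleotides, rose by 0.72 ± 0.09 (adjusted p = 6.01e-05). Pde6d, a carrier of lipid-modified proteins named after its values were seen, rose by 0.33 (adjusted p = 0.00494). Pde3a, the enzyme that clears cAMP in the oocyte, had 4.53, 4.61, 4.59 and 4.58 with FSH/EGF, 4.72, 4.68, 4.59 and 4.56 with GDF9 and 4.73, 4.54, 4.73 and 4.82 in control. The groups overlapped, its difference of -0.13 had a 95% interval from -0.28 to 0.03 (adjusted p = 0.207), and its level was among the dimmest 20% of genes. Pde6a differed by -0.20 (adjusted p = 0.064). It passed without FSH/EGF array 2 (-0.25, adjusted p = 0.0325) or control array 4 (-0.24, adjusted p = 0.0425). Array weights (-0.23, adjusted p = 0.021) and leaving out control arrays 1 and 4 together (-0.29, adjusted p = 0.0332) also let it pass.

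**Figure D2:**
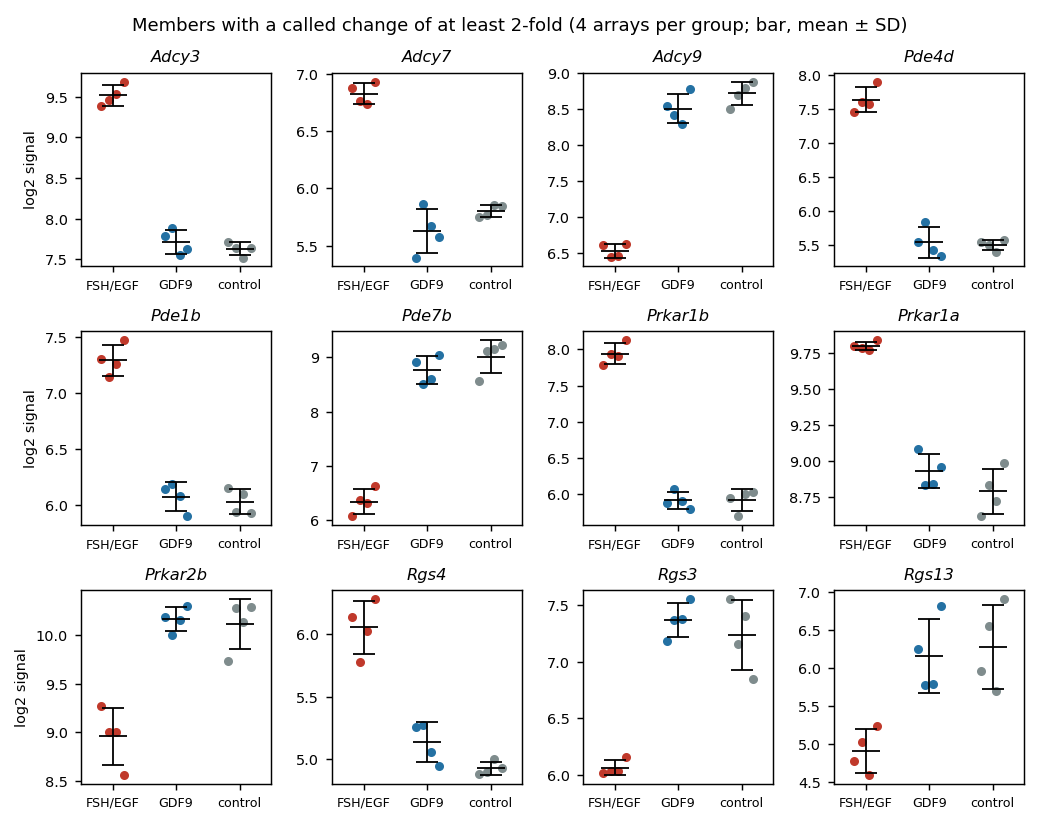
Log2 level on each array (points) with group means and SD (bars, n = 4) for the 12 members that changed at least 2-fold with FSH/EGF, the groups in the order FSH/EGF, GDF9, control. In each of the 12 panels the 4 FSH/EGF points stand clear of the 8 others, and the ranges of the GDF9 and control points overlap.

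PKA was the class with the most calls for its size: 4 of 5 subunit genes passed, 3 higher and 1 lower. That is 80%, beside 36.8% of all genes, but in a class of only 5 genes. The regulatory subunits come as type I, often cytosolic, and type II, mostly held by anchors. Prkar1b had 7.78, 7.94, 7.91 and 8.13 with FSH/EGF, 5.87, 6.07, 5.91 and 5.80 with GDF9 and 5.70 to 6.03 over the 4 control arrays, a 4.06-fold rise (2.02 ± 0.10, adjusted p = 1.22e-08). Prkar1a had 9.80, 9.78, 9.77 and 9.84 with FSH/EGF, 9.09, 8.84, 8.85 and 8.96 with GDF9 and 8.62, 8.83, 8.73 and 8.99 in control, a 2.01-fold rise (1.01 ± 0.09, adjusted p = 2.02e-06). Both type I genes were highest on the FSH/EGF arrays, with no overlap.

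The type II genes went apart from each other. Prkar2b, the type II subunit known for its induction by FSH in rat granulosa cells, had 9.27, 9.01, 9.00 and 8.56 with FSH/EGF, 10.19, 10.00, 10.15 and 10.30 with GDF9 and 9.74, 10.28, 10.13 and 10.29 in control. It was 2.22-fold lower with FSH/EGF (-1.15 ± 0.15, adjusted p = 9.62e-05), with FSH/EGF array 4 the lowest and no overlap. Prkar2a had 7.31, 7.20, 7.31 and 7.22 with FSH/EGF, 7.36, 6.80, 6.87 and 7.01 with GDF9 and 6.83, 6.90, 6.57 and 6.75 in control. It rose by 0.50 ± 0.11 against control (adjusted p = 0.00583), or by 0.33 (adjusted p = 0.0341) after quantile normalization. GDF9 array 1 lay above all FSH/EGF arrays, and FSH/EGF minus GDF9 was 0.25 (adjusted p = 0.148), or 0.37 (adjusted p = 0.0105) without that array.

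Prkacb, the measured catalytic subunit, had 8.50, 8.58, 8.44 and 8.57 with FSH/EGF, 8.78, 8.66, 8.65 and 8.86 with GDF9 and 8.58, 8.76, 8.74 and 8.88 in control. Control array 1 touched the FSH/EGF range, and the difference of -0.22 ± 0.08 missed the threshold (adjusted p = 0.0561). It passed without control array 1 (-0.27, adjusted p = 0.019) and after quantile normalization (-0.43, adjusted p = 0.000253). Array weights (-0.26, adjusted p = 0.00873) and a fit to only the rows with 1 symbol (-0.22, adjusted p = 0.0443) also let it pass.

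**Figure D3:**
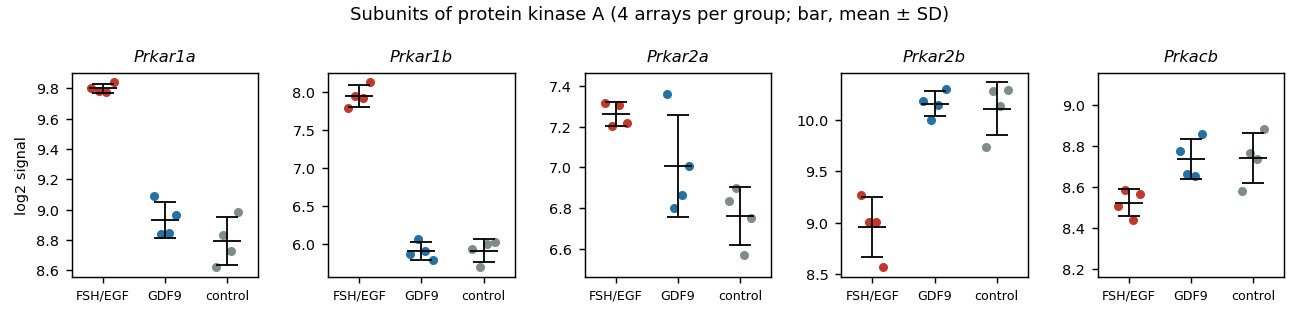
Log2 level of the 5 measured PKA subunit genes on each array (points) with group means and SD (bars, n = 4), the groups in the order FSH/EGF, GDF9, control. FSH/EGF points are highest for Prkar1a and Prkar1b and lowest for Prkar2b, and for Prkar2a GDF9 array 1 at 7.36 lies with the FSH/EGF points.

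The cAMP response element, TGACGTCA, whose core is TGACG, is a motif through which cAMP acts on many genes. The promoter windows of 3 members with changes of at least 2-fold are shown because they hold that motif or its core. Windows of 300 bases, from 250 before to 50 after a start site, came from RefSeq on GRCm38.p6. They were found for 60 of the 77 members, 107 windows in all, and both strands were searched. The full motif reads the same on both strands and each copy contains a core on each. The Prkar1a window is chr11:109650699-109650998 on the plus strand, Prkar1b is chr5:139149952-139150251 on the minus strand and Adcy9 is chr16:4420449-4420748 on the minus strand. They read 5′ to 3′ along the gene, and capitals mark the motif.
Prkar1a: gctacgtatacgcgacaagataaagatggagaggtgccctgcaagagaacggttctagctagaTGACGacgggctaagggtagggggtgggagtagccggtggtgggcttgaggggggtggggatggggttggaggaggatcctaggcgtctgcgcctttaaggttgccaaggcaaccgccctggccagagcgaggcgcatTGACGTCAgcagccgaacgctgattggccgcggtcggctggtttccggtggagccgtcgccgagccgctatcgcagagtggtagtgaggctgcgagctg
Prkar1b: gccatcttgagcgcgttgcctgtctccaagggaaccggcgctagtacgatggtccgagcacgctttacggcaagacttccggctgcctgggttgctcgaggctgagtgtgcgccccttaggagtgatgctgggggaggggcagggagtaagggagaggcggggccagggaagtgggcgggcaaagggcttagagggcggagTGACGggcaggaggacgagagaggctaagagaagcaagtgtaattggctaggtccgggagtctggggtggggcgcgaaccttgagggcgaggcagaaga
Adcy9: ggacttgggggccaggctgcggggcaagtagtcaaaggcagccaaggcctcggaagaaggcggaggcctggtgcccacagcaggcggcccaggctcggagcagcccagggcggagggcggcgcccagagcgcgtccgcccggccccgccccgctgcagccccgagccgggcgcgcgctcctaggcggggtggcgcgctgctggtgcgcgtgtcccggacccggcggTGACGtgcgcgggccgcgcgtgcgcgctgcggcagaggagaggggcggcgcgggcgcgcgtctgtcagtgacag
Prkar1a was the only member with the full motif, in 2 overlapping windows of 2 of its start sites. In the window above it begins 49 bases before the start site, and another core begins 187 bases before it. Prkar1b, which also rose, and Adcy9, which fell, hold a core 49 and 24 bases before the start site. The full motif was in 1.79% of all 32851 windows and 1.87% of those of the members, and the core in 20.8% and 21.5%. Of the 28 windows of the 12 members with changes of at least 2-fold, 7 held a core. These belong to 5 genes: Prkar1a, Prkar1b and Adcy9, shown above, and Adcy7 and Rgs4, which rose. Pde7b, Pde4d, Adcy3 and Pde1b had no core in any window, and of the 5 windows of Prkar1b only the one shown had it. Counted by gene, with any window enough, the core was found for 35.0% of the matched members and 23.0% of all genes in the table. Genes with more windows have more chances of a match, and the members had 107 windows for 60 genes, beside 32851 for 27025. A match of letters is a description and shows no binding.

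A-kinase anchors tie PKA to places in the cell. Of the 15 genes, 4 rose, 4 fell and 7 did not pass with FSH/EGF, and 0 changed by 2-fold or more. The called share was 53.3%, beside 36.8% of all genes. Akap6, an anchor of the nuclear envelope known from heart muscle, had 5.55, 5.21, 5.44 and 5.71 with FSH/EGF, 4.54, 4.54, 4.46 and 4.54 with GDF9 and 4.66, 4.68, 4.62 and 4.66 in control. The FSH/EGF arrays were the highest and the rise was 0.82 ± 0.09 (adjusted p = 1.92e-05).

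Akap11, which binds PKA and also glycogen synthase kinase, had 8.50, 8.29, 8.55 and 8.55 with FSH/EGF, 8.16, 7.78, 7.85 and 7.98 with GDF9 and 7.02, 8.05, 7.87 and 8.04 in control. Control array 1 was by far the lowest, but no control array reached the FSH/EGF range, and the rise was 0.73 ± 0.19 (adjusted p = 0.0136). Its other 2 probe sets differed by 0.74 and 0.65. Akap12, a scaffold that binds PKA and PKC, had 5.47, 5.52, 5.51 and 5.55 with FSH/EGF, 5.02, 5.13, 5.21 and 5.01 with GDF9 and 5.28, 5.07, 5.19 and 5.20 in control, a rise of 0.33 ± 0.07 (adjusted p = 0.00352). Akap10, an anchor known from mitochondria and endosomes, rose by 0.37 ± 0.10 (adjusted p = 0.0136), but after quantile normalization the difference was 0.17 (adjusted p = 0.254). Akap13 differed by 0.42 ± 0.16 (adjusted p = 0.062) and passed without control array 2 (0.51, adjusted p = 0.043) or control array 4 (0.53, adjusted p = 0.0281). It also passed with equal array medians (0.50, adjusted p = 0.0492). The same held with the dimmest 40% of rows left out (adjusted p = 0.0435) and with only rows of 1 symbol (adjusted p = 0.0337).

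The 4 anchors that fell did so by less than 0.5 on the log2 scale. Akap8l, a nuclear protein, had 7.14, 7.20, 7.25 and 7.18 with FSH/EGF, 7.75, 7.58, 7.62 and 7.81 with GDF9 and 7.35, 7.58, 7.85 and 7.78 in control (-0.45 ± 0.10, adjusted p = 0.00522). Akap9, an anchor of the centrosome and Golgi, had 7.75, 7.74, 7.78 and 7.71 with FSH/EGF, 8.29, 8.03, 8.20 and 8.42 with GDF9 and 7.76, 8.30, 8.31 and 8.37 in control. Control array 1 fell within the FSH/EGF range, the difference was -0.44 ± 0.13 (adjusted p = 0.0198), and the call was lost without control array 2, 3 or 4 (adjusted p from 0.0527 to 0.058). The Akap9 call was also lost with equal array medians (-0.37, adjusted p = 0.0758).

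Akap7, a membrane anchor, had 5.40, 5.27, 5.54 and 5.20 with FSH/EGF, 6.27, 5.84, 6.05 and 5.98 with GDF9 and 5.46, 5.85, 5.84 and 5.91 in control. Its FSH/EGF arrays lay below all GDF9 arrays but overlapped control array 1, with -0.41 ± 0.12 against control (adjusted p = 0.0216) and -0.68 against GDF9 (adjusted p = 0.00103). The Akap7 call against control was lost without any 1 of FSH/EGF arrays 2 and 4 or control arrays 2, 3 and 4 (adjusted p from 0.0551 to 0.0636). It was also lost with equal array medians (-0.34, adjusted p = 0.0867) and after quantile normalization (-0.34, adjusted p = 0.069). Akap5, a scaffold best known from synapses, differed from control by -0.38 ± 0.13 (adjusted p = 0.0406) with overlapping groups, and its call was lost without any 1 of FSH/EGF arrays 1, 3 and 4 or control arrays 2, 3 and 4 (adjusted p from 0.0588 to 0.108). Equal array medians (-0.30, adjusted p = 0.119) and quantile normalization (-0.35, adjusted p = 0.0594) lost the Akap5 call too.

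RGS genes split evenly, with 5 that rose, 5 that fell and 12 that did not pass with FSH/EGF. The called share was 45.5%, beside 36.8% of all genes. Rgs4, a small RGS protein that acts on Gi and Gq, had 6.14, 5.78, 6.02 and 6.28 with FSH/EGF, 5.26, 5.27, 5.06 and 4.94 with GDF9 and 4.88, 4.90, 5.00 and 4.93 in control. The FSH/EGF arrays were the highest and the rise was 2.18-fold (1.13 ± 0.11, adjusted p = 5.47e-06). Rgs17 rose by 0.72 ± 0.09 (adjusted p = 4.28e-05), Rgs6 by 0.63 ± 0.10 (adjusted p = 0.000286) and Rgs9 by 0.44 ± 0.11 (adjusted p = 0.0107), with Rgs6 and Rgs9 of the subfamily that pairs with Gbeta5. The Rgs9 call was lost with control arrays 1 and 4 left out together (0.42, adjusted p = 0.0532). Rgs1, best known from lymphocytes, had 4.36, 4.47, 4.54 and 4.98 with FSH/EGF, 4.01, 4.18, 4.32 and 4.38 with GDF9 and 4.18, 4.19, 4.25 and 4.05 in control. Its level lay among the dimmest 20% of genes, and its rise of 0.42 ± 0.13 (adjusted p = 0.0258) was lost without FSH/EGF array 4 (0.29, adjusted p = 0.0526) or control array 4 (0.38, adjusted p = 0.061).

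Rgs13, a short RGS protein known from B cells and mast cells, had 4.77, 5.03, 4.59 and 5.24 with FSH/EGF, 6.25, 5.78, 5.79 and 6.81 with GDF9 and 5.96, 6.55, 5.70 and 6.91 in control. It had the widest spread of any member within the GDF9 and control groups, yet the FSH/EGF arrays stayed below both, at 2.59-fold lower than control (-1.37 ± 0.28, adjusted p = 0.00269). Rgs3 had 6.02, 6.04, 6.03 and 6.16 with FSH/EGF, 7.18, 7.37, 7.38 and 7.56 with GDF9 and 7.55, 7.15, 7.41 and 6.84 in control, a fall of 1.18 ± 0.13 (adjusted p = 2.44e-05). The other Rgs3 probe set fell by 1.09 ± 0.07 (adjusted p = 1.7e-07), and Rgs3 acts on Gi and Gq.

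Rgs11, of the Gbeta5 subfamily like Rgs6 and Rgs9, had 5.06, 5.30, 5.46 and 5.31 with FSH/EGF, 5.92, 5.82, 5.93 and 5.92 with GDF9 and 6.17, 6.12, 6.28 and 6.01 in control. The 3 groups did not overlap, with -0.87 ± 0.09 for FSH/EGF against control (adjusted p = 1e-05). Rgs12, a large scaffold of Gi and Ras signals, fell by 0.73 ± 0.09 (adjusted p = 3.44e-05), and Rgs16, named after its values were seen, by 0.65 ± 0.10 (adjusted p = 0.000257). Rgs2, known for acting on Gq and for blunting cAMP production, had 10.38, 10.34, 10.28 and 10.75 with FSH/EGF, 10.68, 10.32, 10.68 and 10.25 with GDF9 and 10.30, 10.48, 10.61 and 10.61 in control. The 3 groups overlapped, and the difference of -0.07 had a 95% interval from -0.35 to 0.22 (adjusted p = 0.736).

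In the GRCm38 gene table, on chromosome 1, Rgs2, Rgs13, Rgs1, Rgs21 and Rgs18 follow each other with 0 other protein-coding genes between them, and of these Rgs13 fell, Rgs1 rose, by a call that 1 array can undo, and Rgs2, Rgs21 and Rgs18 did not pass. Rgs4, which rose, neighbours Rgs5, which differed by 0.00. Rgs16, which fell by 0.65, neighbours Rgs8, which differed by -0.12.

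**Figure D4:**
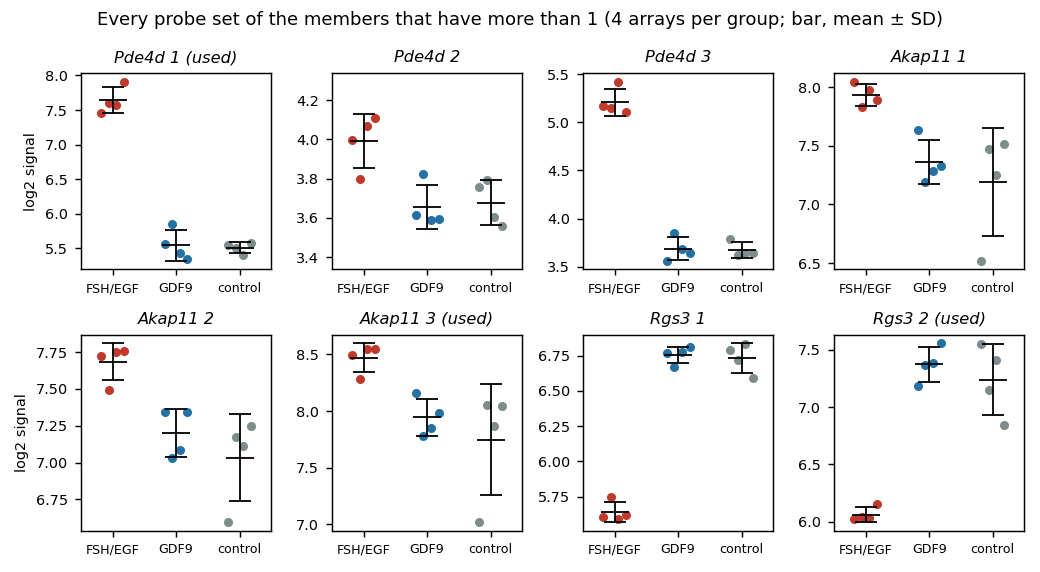
Log2 level on each array (points) with group means and SD (bars, n = 4) for every probe set of Pde4d, Akap11 and Rgs3, the 3 members with more than 1, the groups in the order FSH/EGF, GDF9, control. The Pde4d probe sets differ in the size of the rise, from 0.31 to 2.13, and in the control mean, from 3.67 to 5.51. The 2 Rgs3 probe sets fell by 1.18 and 1.09.

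The oocyte secretes GDF9, a member of the TGF-beta family, and its receptors signal through SMAD proteins rather than cAMP. Against control 0 of the 77 members passed the threshold by limma, and 0% of all genes did. At an unadjusted p under 0.05 there were 3 members, 3.9%, beside 4.95% of all genes. These were Akap7 at 0.27, Rgs11 at -0.25 and Rgs16 at -0.26, and the smallest adjusted p over the members was 0.971. The groups did not overlap for 2 members, Akap6 and Rgs11, which is 2.6% beside 2.32% of all genes.

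The intervals give a range for the difference with GDF9 gene by gene, and they are not adjusted for the number of genes. Whole complexes were cultured in all groups, so the comparison is of added GDF9, beside any that the oocytes secreted. The 95% interval of all 77 members lay within 1 of 0 on the log2 scale, and that of 72 lay within 0.5, with the farthest bound of 0.73 for Rgs13. The 12 members with changes of at least 2-fold under FSH/EGF had differences with GDF9 between -0.24 for Pde7b and 0.21 for Rgs4. The member with the smallest p was Adcy2 among the cyclases, at -0.16, Pde6b among the phosphodiesterases, at -0.15, and Prkar2a among the PKA subunits, at 0.24.

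Set directly against GDF9, FSH/EGF changed 26 of the 77 members, 33.8%, beside 29.1% of all genes, 15 higher and 11 lower, where 18.6% of all genes were higher and 10.5% lower. Differences of at least 2-fold were seen in 11 of the 77 members, beside 1309 of all 19938 genes (6.57%). This comparison shares the FSH/EGF arrays with the comparison against control. All 26 had passed against control in the same direction, 8 passed against control alone and 0 passed against GDF9 alone. This split depends on control array 1, which enters here only through the shared spread. Without it 32 passed against GDF9, among them Akap10 (adjusted p = 0.0243), Akap11 (0.00133), Akap13 (0.016) and Prkacb (0.0402). With all arrays, the other 2 Akap11 probe sets passed against GDF9 (adjusted p = 0.0422 and 0.022). Adcy3 was 1.81 higher than in GDF9, Pde4d 2.09 higher and Prkar1b 2.03 higher. Pde7b was 2.42 lower than in GDF9 and Adcy9 1.98 lower.

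Genes next to these in the pathway moved in both directions with FSH/EGF, apart from the G protein alpha subunits, of which 6 of 10 measured rose and 0 fell. The inhibitory subunits Gnai1, Gnai3 and Gnai2, which curb adenylyl cyclase, rose by 0.95, 0.94 and 0.74. Of 9 receptors that couple to Gs, 2 rose and 3 fell, among them Fshr, the receptor for FSH, at -3.14, and Ptger4, a prostaglandin E receptor, at 0.69. Of 12 other effectors, inhibitors and transporters, 1 rose and 4 fell, with the PKA inhibitor genes Pkia at 0.34 and Pkig at -0.56. The called share was 60% for the alpha subunits, 55.6% for the receptors and 41.7% for the other effectors list, beside 36.8% of all genes.

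Downstream, 3 of 10 CREB family and coactivator genes rose and 2 fell. Crem, which encodes both activators and the cAMP-induced repressor ICER, rose by 1.34, and the coactivator Crtc3 fell by 0.79. Of 17 genes known as CREB targets, 4 rose and 3 fell, with Star, which carries cholesterol into mitochondria, at 2.02, the phosphatase gene Dusp1 at 1.54 and Fos at -1.12. Of 9 genes for cGMP synthesis, receptors and kinases, 2 rose and 2 fell. The called share was 50% for the CREB family list, 41.2% for the CREB targets and 44.4% for the cGMP list, beside 36.8% of all genes. With GDF9 0 genes of these lists passed.

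**Figure D5:**
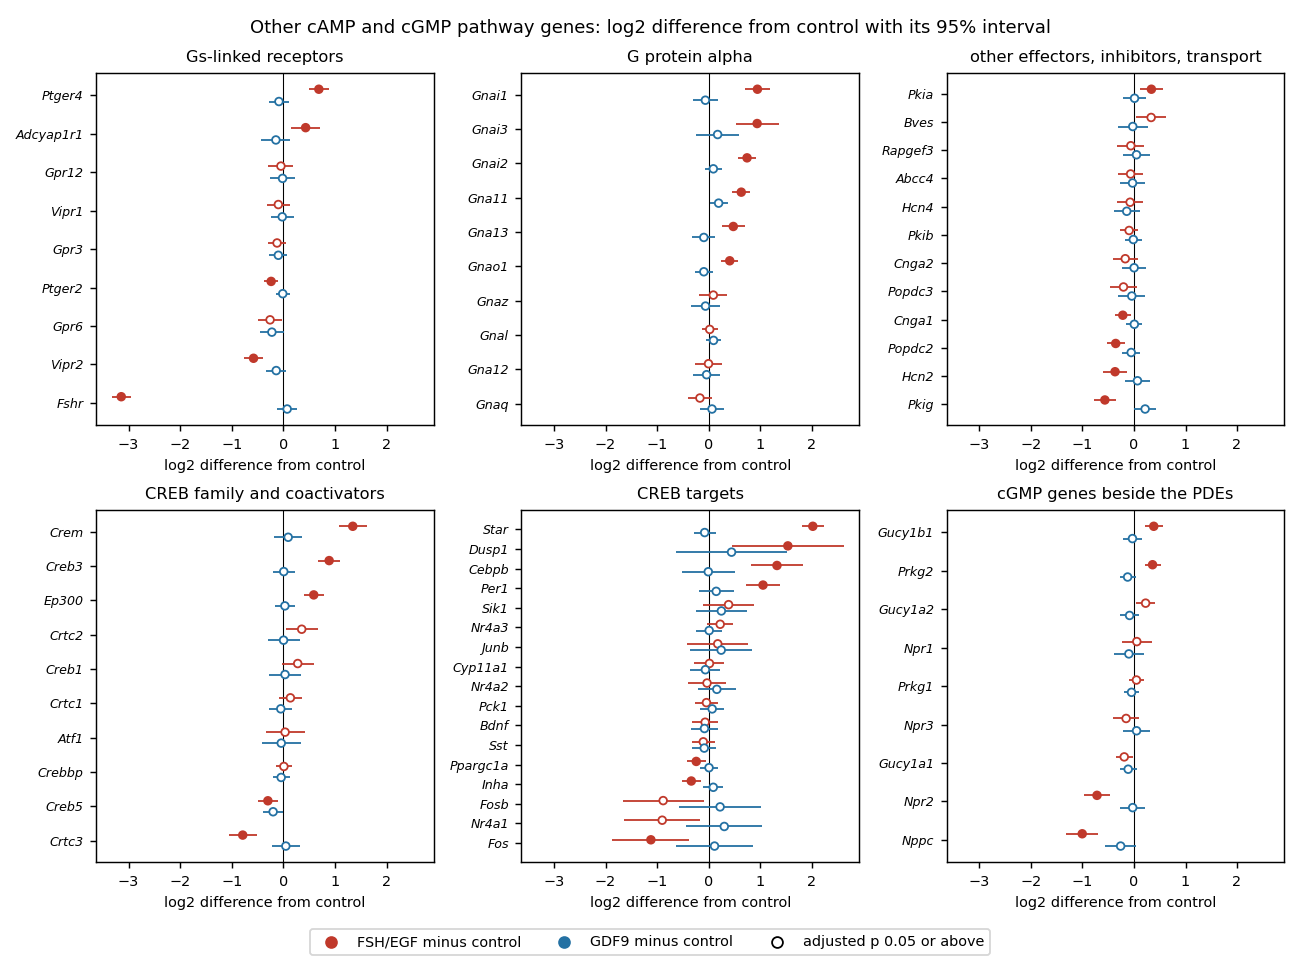
Log2 difference from control for each measured gene of 6 lists next to the members in the pathway, for FSH/EGF and for GDF9, 4 arrays per group, filled where the adjusted p was under 0.05. The G protein alpha subunits with FSH/EGF run from -0.17 to 0.95, whereas the other 5 lists hold called genes on both sides of 0.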

How the data were processed

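The measurements were expression values of cumulus cell RNA on 12 microarrays, 4 per culture group. The values were deposited on a log2 scale, and the authors had normalized them. Per the submitters' processing notes the tools were GCOS, RMA and Partek, with no version or role stated, and the sources used here do not give a genome build or annotation version. The table had 35399 probe set rows, of which the platform annotation gave 1 symbol for 21789 and several for 1621. The other 11989 rows carry no name here.

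Groups were compared with limma 3.58.1 (R 4.3.3), fitting a mean for each group to all 12 arrays and moderating the variances. P-values were adjusted by Benjamini-Hochberg within each of 3 comparisons, over every row of the table, and an adjusted p under 0.05 counted as a change. Differences are log2 differences with standard errors (SE) and 4 arrays per group. Arrays give no read depth, and their number limits the precision. The script was tested on simulated data.

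The members, the lists and the tests were chosen with earlier results of these data known. Members named with values were, in each class, up to 4 with the largest rise and up to 4 with the largest fall past the threshold against control, the smallest p with GDF9, up to 2 whose call changed without 1 array, and a preset list that holds all PKA subunits, Adcy3, Adcy9, Pde3a, Pde4a, Pde4b, Pde4d, Pde7b, Pde8a, Pde10a, Rgs2, Akap12 and Akap13. For the pathway lists, the plan was to name up to 3 genes with the largest changes past the threshold. Some lists have fewer named than passed, and none of the cGMP list is named. Rgs5, Rgs8, Rgs7bp, Rgs9bp, Rgs18, Rgs21, Pkia and Fos were named after their values were seen. Alternatives covered normalization, filters on dim rows, array weights, a replicate block and each array left out.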

Additional observations from a re-analysis of the deposited data

Results flagged for a closer look

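The 41 members named by rule gave 123 groups of 4 arrays. In 6 of these, 1 array lay so far from the other 3 that the gap passed Dixon's 95% critical value. Chance gives this in about 1 of 20 groups, but some of these members were named because their call changes without 1 array, so the rate is not a test. For 3 genes this was control array 1: Pde7b at 8.56 beside 9.11 to 9.21 on the other controls, Akap9 at 7.76 beside 8.30 to 8.37, and Akap7 at 5.46 beside 5.84 to 5.91. Rgs3 had 6.16 on FSH/EGF array 4, beside 6.02 to 6.04 on the other FSH/EGF arrays. Akap6 had 4.46 on GDF9 array 3, beside 4.54 on each of the others, and Rgs11 had 5.82 on GDF9 array 2, beside 5.92 to 5.93. Why these arrays differ was not tested.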

How the results depend on the processing

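Gene by gene, the alternatives were run for the 41 members named by rule, which leaves out Pde6d and Rgs16, and none of them turned the direction of a called value. Against control, the 34 members that passed with FSH/EGF were 29 to 35 when any 1 array was left out, 19 to 22 higher and 9 to 15 lower. The lowest count of 9 lower came without control array 2 and without control array 3. With a fold of at least 2 required there were 12, 7 higher and 5 lower. The 14 lower members became 9 with equal array medians and 9 at an adjusted p under 0.01. Against GDF9, the 26 were 26 to 32 with 1 array left out, 15 to 19 higher and 11 to 13 lower, and 11 at a fold of at least 2, 6 higher and 5 lower. With GDF9 against control the count was 0 under each alternative run. With the replicate block the counts were 34 against control and 26 against GDF9. The replicate numbers were not taken to pair the arrays. To look for pairing, each gene's group mean was subtracted, and the remaining deviations were correlated between arrays of different groups. The 12 correlations of deviations between arrays of the same number ran from -0.389 to 0.221, with a median of 0.105 and 6 over 0.1. Between arrays of other numbers the median was -0.05, with 9 of 36 over 0.1. Leaving out 1 array changed 6 of the 34 calls and let 7 other members pass. The share of probes above background was not analysed here, so the dimmest members are limited: 14 members lay among the dimmest 20% of genes and 1 of them passed. That level was the mean over all 12 arrays, so a rise with FSH/EGF lifts a gene out of this group, and the count is no test. Pde4b, Akap6 and Rgs6 rose and lay above the 20% line. Their control means of 4.56, 4.65 and 4.66 were below the 4.71 of Pde3a, which lay under it. The cause of the changes in the counts was not tested.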
